A study of Homo sapiens with 6 samples.

Results

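The cytosolic chaperonin, called CCT or TRiC, is built from the products of 8 genes: TCP1, CCT2, CCT3, CCT4, CCT5, CCT6A, CCT7 and CCT8. These were chosen by name, as all rows of the deposited comparison whose gene was one of the 8, out of 56794 gene names in all. They had 104 listed transcripts, and 93 of these carried group means. RNA was measured in HEK293, an established line from human embryonic kidney, made to express luciferase and grown in DMEM with 10% fetal bovine serum. The 3 CASP8AP2 mutant libraries came from cells whose CASP8AP2 gene was labelled as deleted with CRISPR, and the 3 parental libraries from the unedited line. Both groups share the luciferase gene, and the labels do not say whether the mutant cells were 1 clone or a pool. The design asks how RNA levels differ between mutant and parental cells, in a study of recombinant protein yield and cell cycle arrest.

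CCT is a double ring in which each ring holds 1 copy of every subunit. Newly made proteins enter the chamber, a lid closes over them as ATP is hydrolysed, and they leave folded. Actin and tubulin depend on it, as do many proteins with WD40 propellers. In yeast and mammalian complexes the subunits follow a fixed order around the ring: TCP1, CCT4, CCT2, CCT5, CCT7, CCT8, CCT6A, CCT3. The first 4 of these bind ATP more tightly in yeast than the other 4.

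The 8 genes lie on 7 chromosomes of build hg38 and do not form a cluster. TCP1 lies on chromosome 6 (159778498 to 159789749, minus strand), CCT2 on chromosome 12 (69585334 to 69601570, plus strand) and CCT3 on chromosome 1 (156308968 to 156367873, minus strand). CCT4 (61868089 to 61888804, minus strand) and CCT7 (73233420 to 73253021, plus strand) are far apart on chromosome 2. CCT5 lies on chromosome 5 (10249921 to 10266412, plus strand), CCT6A on chromosome 7 (56051630 to 56063989, plus strand) and CCT8 on chromosome 21 (29055805 to 29073797, minus strand).

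Sequences of 4 members near the RefSeq gene start are shown. TCP1 and CCT8 are the members described below that were not lower in mutant cells. CCT7 and CCT2 had the lowest ratios among the members with a window. Each sequence is the 250 bases before the RefSeq gene start, read 5′ to 3′ from RefSeq tables of build GRCh38.p14. The windows are TCP1 (chr6:159789603-159789852, minus strand), CCT8 (chr21:29073649-29073898, minus strand), CCT2 (chr12:69585209-69585458, plus strand) and CCT7 (chr2:73234058-73234307, plus strand). Capitals mark matches on either strand to any of 5 motifs.
TCP1: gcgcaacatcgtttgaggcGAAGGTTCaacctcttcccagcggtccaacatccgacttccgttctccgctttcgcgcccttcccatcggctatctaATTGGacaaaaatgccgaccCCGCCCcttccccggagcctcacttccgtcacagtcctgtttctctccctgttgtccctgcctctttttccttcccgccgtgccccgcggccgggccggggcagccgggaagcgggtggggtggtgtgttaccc
CCT8: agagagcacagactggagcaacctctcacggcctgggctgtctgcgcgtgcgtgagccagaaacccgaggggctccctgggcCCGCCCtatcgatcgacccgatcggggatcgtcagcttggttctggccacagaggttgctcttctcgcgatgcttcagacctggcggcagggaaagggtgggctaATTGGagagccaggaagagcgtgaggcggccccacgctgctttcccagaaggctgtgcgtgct
CCT2: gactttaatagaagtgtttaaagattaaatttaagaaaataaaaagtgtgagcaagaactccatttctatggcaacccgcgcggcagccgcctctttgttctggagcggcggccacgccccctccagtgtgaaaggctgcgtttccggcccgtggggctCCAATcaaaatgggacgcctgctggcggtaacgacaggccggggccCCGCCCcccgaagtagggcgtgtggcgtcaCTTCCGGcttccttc
CCT7: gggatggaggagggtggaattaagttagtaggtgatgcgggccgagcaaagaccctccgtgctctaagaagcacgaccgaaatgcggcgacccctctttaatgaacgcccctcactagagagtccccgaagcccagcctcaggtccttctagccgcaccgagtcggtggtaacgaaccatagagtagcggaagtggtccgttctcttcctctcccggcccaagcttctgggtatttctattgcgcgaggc
The motifs were a short heat shock element pattern GAANNTTC, the CCAAT box CCAAT, the GC box GGGCGG, the E-box CACGTG and the ETS motif CTTCCGG. No match overlapped another in these 4 windows. A window was found for 7 of the 8 members, and none for CCT6A. A match to the short heat shock element pattern was found in the window of TCP1 alone, 231 bases before the RefSeq start. Of all 35116 windows of this length, 5.78% held one. The CCAAT box was in 4 of 7 windows (TCP1, CCT2, CCT3 and CCT8), against 32.0% of all windows, and the GC box in the same 4, against 42.6% of all windows. The ETS motif was in the window of CCT2 alone, against 8.52% of all windows, and the E-box in none of the 7, against 6.34%. The window of CCT7 held no match to the 5 motifs. Except for CCT4, RefSeq starts lay downstream of the annotated start of the most abundant transcript. The distances were 147 bases (TCP1), 149 bases (CCT8), 125 bases (CCT2), 70 bases (CCT7), 173 bases (CCT3) and 608 bases (CCT5). For CCT4 the distance was 0. The windows other than that of CCT4 thus run into that transcript's annotated span, and none is matched to measured starts. The window of CCT5 lies wholly inside the span. The motif counts over the 7 windows therefore do not cover the sequence before the start of that CCT5 transcript. All matches of CCT2 and CCT3 lay inside the span. So did the GC box of TCP1 (134 bases before the RefSeq start) and the CCAAT box of CCT8 (63 bases). The other matches of TCP1 and CCT8 lay before the span. These matches describe letters, not binding.

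A transcript's level is the authors' mean length-scaled abundance in a group of 3 libraries, less 1, the lowest value they list, and a gene's level is the sum over its transcripts. The deposited table holds no value of a single library, so neither a spread between libraries nor an overlap of libraries can be given. The labels do not say whether replicates came from separate cultures, so the p-values measure only the spread between these libraries, which may be technical. Estimated depth was 13.3 to 57.5 M reads in mutant libraries and 9.19 to 15.3 M in parental ones. At the group means, a member gene would hold between 2372 and 7675 reads in the shallowest mutant library and between 2199 and 6452 in the shallowest parental one. All 6 HEK293 markers reached 1 in at least 1 group, but NEFM stood at 0.0690 in mutant cells against 8.63 in parental cells, and NEFL at 434 against 35.7. The 4 blood and 3 liver markers stayed under 1 in both groups. The targeted gene CASP8AP2 stood at 15.7 in mutant and 15.9 in parental cells, and since no label places the deletion within the gene, this level does not check the labels.

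Of the 8 subunit genes, 6 had lower gene sums in mutant than in parental cells and 2 did not, and no transcript of any passed the adjusted threshold of the authors' deposited table. CCT6A and CCT7 had the largest differences, -28.4% and -26.3% relative to the parental level, while TCP1 stood at 7.64% and CCT8 at 1.57%. By the most abundant transcript alone, CCT6A (log2 ratio -0.33) came after CCT7 (-0.46) and CCT2 (-0.35), CCT4 stood at -0.31, and TCP1 was on the lower side at -0.09. The summed level of all 8 was 1146 in mutant and 1342 in parental cells, a difference of -14.6%. In bulk RNA, fewer cells with a transcript and less RNA per cell cannot be told apart. As a share of the total over all transcripts this was 0.231% in mutant and 0.271% in parental cells. The members' median log2 ratio (mutant over parental, each plus 1) was -0.26. Over all 14856 genes with a level of at least 1 in either group the median was -0.01, with 50.6% of those genes lower and 49.4% higher in mutant cells. Among the 1610 genes at 50 or more, which is the range of the members, the median was -0.11 and 61.1% were lower. The members' 6 of 8 lower genes stood beside a background that itself leaned to the lower side.

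On the side of the ring that binds ATP more tightly, TCP1 was the member that was not lower. TCP1, the founding member, first known from the mouse t complex, had a gene sum of 147 in mutant and 137 in parental cells, a log2 ratio of 0.11. CCT4, the delta subunit, which in rats carries a mutation that causes a sensory neuropathy, had 105.6 in mutant and 118 in parental cells, a log2 ratio of -0.16. CCT2, the beta subunit, also described as a receptor for the autophagy of protein aggregates, had 105.3 in mutant and 131 in parental cells, a log2 ratio of -0.31. TCP1 lay above CCT4 and CCT2 in each group, by more in mutant than in parental cells. CCT5, the epsilon subunit, mutated in a human hereditary sensory neuropathy and able to form rings by itself, had 279 in mutant and 326 in parental cells, a log2 ratio of -0.22.

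On the other side of the ring CCT8 was the member that was not lower. CCT7, the eta subunit, had 165 in mutant and 224 in parental cells, a log2 ratio of -0.44. It had the largest difference of the 8 on the abundance scale, -59.0. CCT8, the theta subunit, whose raised level extends lifespan in the nematode C. elegans, had 118 in mutant and 116 in parental cells, a log2 ratio of 0.02. CCT6A, the zeta subunit, which has a testis copy named CCT6B, had 76.4 in mutant and 107 in parental cells, a log2 ratio of -0.48. CCT3, the gamma subunit, had 149 in mutant and 183 in parental cells, a log2 ratio of -0.30. Each side of the ring thus held 3 genes with lower sums and 1 without. By its most abundant transcript TCP1 was on the lower side, at a log2 ratio of -0.09. The split by side thus depends on the use of gene sums.

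**Figure D1:**
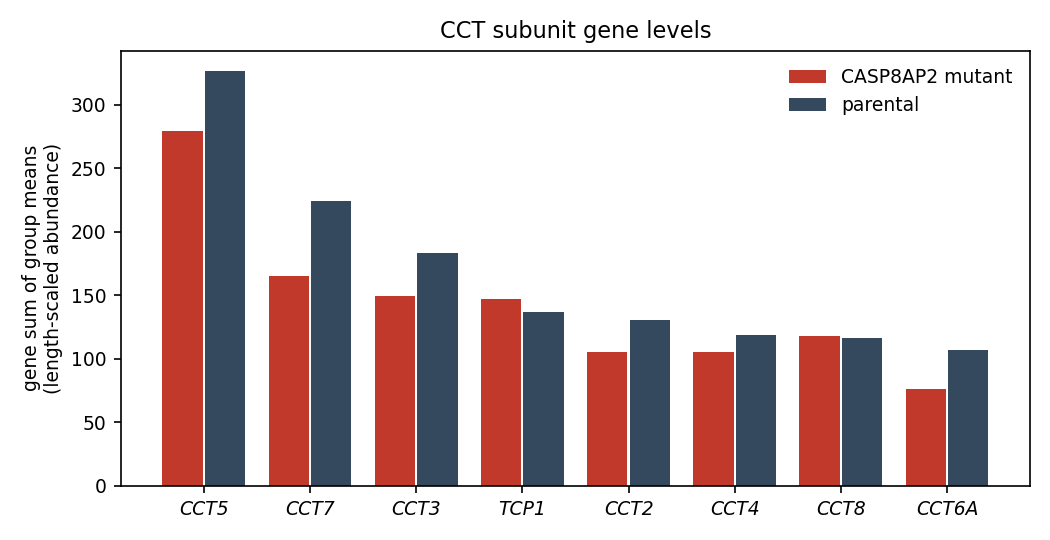
Gene sums of the group means (length-scaled abundance) for the 8 CCT subunit genes in CASP8AP2 mutant (left bar) and parental (right bar) cells, ordered by the parental level. CCT5 is highest (279 in mutant and 326 in parental cells) and CCT6A lowest (76.4 in mutant and 107 in parental cells) in both groups; no error bars are drawn because single libraries were not in the table.

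The levels of the subunits were unequal although the complex holds equal numbers of each. The highest gene sum was 3.66 times the lowest in mutant cells and 3.06 times in parental cells, and the coefficient of variation over the 8 genes was 43.4% in mutant and 44.9% in parental cells. In mutant cells the order from high to low was CCT5, CCT7, CCT3, TCP1, CCT8, CCT4, CCT2 and CCT6A. In parental cells it was CCT5, CCT7, CCT3, TCP1, CCT2, CCT4, CCT8 and CCT6A. CCT2 and CCT8 exchanged places: CCT2 had rank 7 in mutant and rank 5 in parental cells, and CCT8 had rank 5 in mutant and rank 7 in parental cells. Whether neighbours in this order differ beyond their spread cannot be said from group means. Of the summed level, TCP1 made up 12.8% in mutant and 10.2% in parental cells, and CCT8 10.3% in mutant and 8.67% in parental cells. CCT7 made up 14.4% in mutant and 16.7% in parental cells, and CCT6A 6.66% in mutant and 7.94% in parental cells.

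Against all 14856 genes, the log2 ratio of CCT6A was above that of 12.6% of genes and that of CCT7 above 14.5%. CCT2 stood above 22.8%, CCT3 above 23.5%, CCT5 above 29.6% and CCT4 above 34.9%, all within the lower part of the distribution but not at its edge. CCT8 stood above 52.6% and TCP1 above 61.1%.

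**Figure D2:**
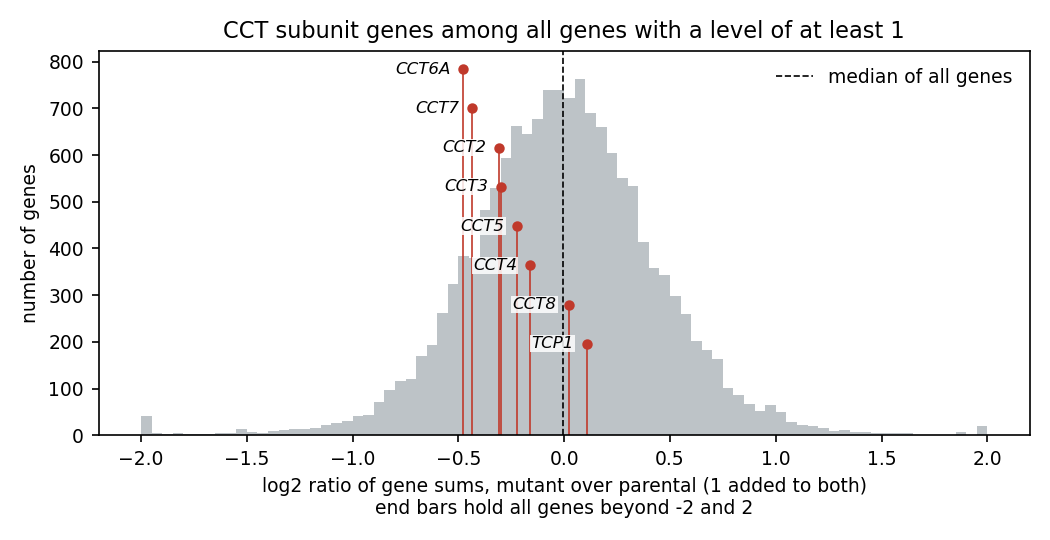
Histogram of the log2 ratio of gene sums, mutant over parental, for the 14856 genes at a level of at least 1 (x axis, with genes beyond -2 and 2 placed in the end bars; y axis, number of genes), with the 8 CCT subunit genes as red points and the median of all genes as a dashed line. The members run from -0.48 (CCT6A) to 0.11 (TCP1), and 6 of them lie left of the median of -0.01; the height of a red point has no meaning.

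GC content moved with the ratio across genes. Spearman's rho between GC content and the log2 ratio was 0.31 across 14723 genes, a description over genes that share the same libraries. The most abundant transcripts of 6 members (all but CCT3 and CCT7) were poorer in G and C than the median of 48.6%, with a range over the 8 from 43.1% to 51.8%. With the trends over GC content and length taken off, the members' median log2 ratio was -0.16 in place of -0.26, and still 6 of 8 were lower. CCT7 then stood at -0.41, CCT6A at -0.40, CCT3 at -0.28, CCT2 at -0.19, CCT5 at -0.12 and CCT4 at -0.07, against 0.14 for CCT8 and 0.19 for TCP1. The part of GC content in the differences was not tested further.

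At the level of transcripts, the authors' deposited table called 0 of the members' 93 at the adjusted threshold of 0.05, against 0.0221% of 140552 transcripts in all. The smallest adjusted p of a member was 0.642. At an unadjusted p under 0.05, 5 of the 93 were lower and 0 higher, against 2.48% of all transcripts lower and 3.3% higher. All 5 were at a level of 1 or more, where the count was 5 of 64 (7.81%) against 6.01% of 37102 transcripts lower, a share near the background, and 0 of 64 against 5.78% higher. Of the 64 transcripts, 39 were lower and 25 higher, with a median log2 ratio of -0.14, and 47.9% of all transcripts at that level were lower. Of the members' most abundant transcripts, 0 of 8 were called after adjustment, against 0.0404% over genes, and 2 of 8 had an unadjusted p under 0.05 and were lower, against 8.63% of 14856 genes and 14.4% of the 1610 genes at 50 or more, and 0 of 8 were higher, against 5.17%.

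These 5 transcripts belonged to 4 genes. CCT6A-207 stood at 7.05 in mutant and 10.7 in parental cells; the authors' deposited table gives an unadjusted p of 0.0157. CCT6A-204 stood at 12.1 in mutant and 20.3 in parental cells; the authors' deposited table gives an unadjusted p of 0.0279. Both are annotated as retained intron transcripts. CCT7-201, the main coding transcript of CCT7, stood at 115 in mutant and 158 in parental cells; the authors' deposited table gives an unadjusted p of 0.0328. CCT4-204, a coding transcript with 47.7% of the gene sum in mutant and 52.9% in parental cells, stood at 50.4 in mutant and 62.6 in parental cells; the authors' deposited table gives an unadjusted p of 0.0377. CCT5-201, a minor coding transcript, stood at 4.69 in mutant and 8.94 in parental cells; the authors' deposited table gives an unadjusted p of 0.0409. Next by unadjusted p in the authors' deposited table were CCT6A-205 (0.0538), CCT2-213 (0.0647), CCT2-205 (0.0726), CCT5-204 (0.0783) and CCT2-201 (0.0803). Of these, CCT2-213 and CCT5-204 were on the higher side, both at levels under 1 in each group.

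Further main transcripts on the lower side had larger p-values. CCT2-201 stood at 73.5 in mutant and 93.7 in parental cells. CCT5-203 stood at 167 in mutant and 207 in parental cells; the authors' deposited table gives an unadjusted p of 0.0906. CCT3-201 stood at 99.1 in mutant and 123 in parental cells, a deposited ratio of 0.806, where the authors' deposited table gives an unadjusted p of 0.531. CCT4-204 had nearly the same deposited ratio, 0.808, at the p of 0.0377 given above. Nearly equal ratios thus came with unequal p-values, and the spread behind them could not be read from the group means. CCT6A-201 stood at 43.4 in mutant and 54.98 in parental cells; the authors' deposited table gives an unadjusted p of 0.378.

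The transcripts of TCP1 and CCT8 lay on both sides. TCP1-203, a coding transcript, stood at 17.7 in mutant and 7.69 in parental cells, the highest log2 ratio among the 93 member transcripts at 1.10; the authors' deposited table gives an unadjusted p of 0.350. Without it the TCP1 sum was 129.3 in mutant and 128.8 in parental cells, a log2 ratio of 0.01, so this transcript carried most of the gene's difference. TCP1-201 stood at 46.8 in mutant and 49.8 in parental cells, and TCP1-202 at 47.9 in mutant and 47.7 in parental cells. CCT8-201 stood at 78.4 in mutant and 72.5 in parental cells; the authors' deposited table gives an unadjusted p of 0.876. CCT8-204, annotated as a processed transcript, lay the other way at 14.4 in mutant and 16.0 in parental cells, as did CCT8-211, a minor coding transcript, at 1.87 in mutant and 4.04 in parental cells, a log2 ratio of -0.81; the authors' deposited table gives it an unadjusted p of 0.404.

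**Figure D3:**
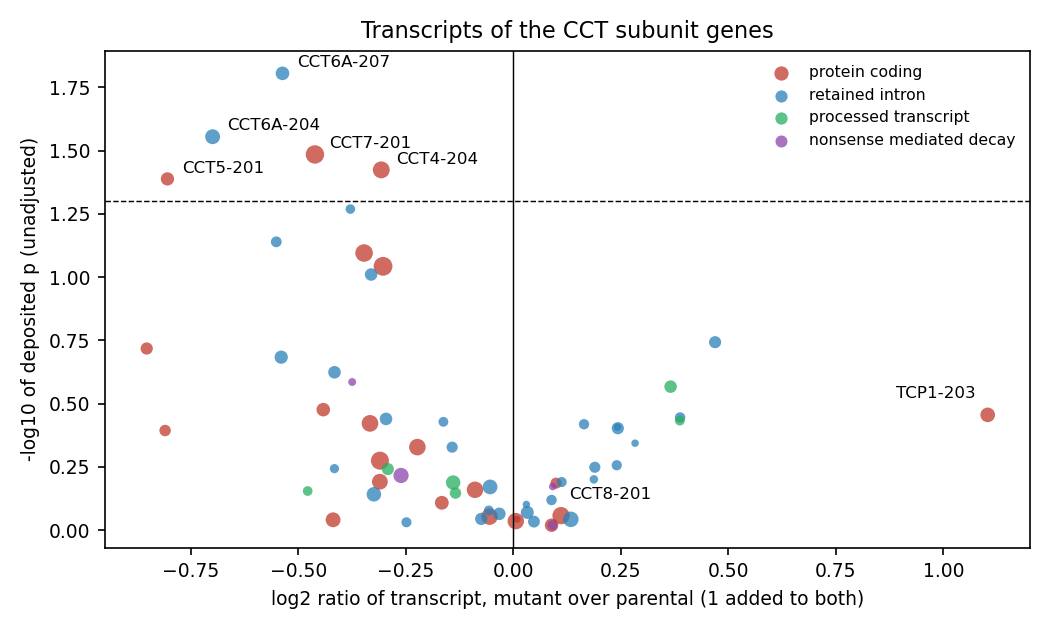
The 64 transcripts of the 8 genes at a level of at least 1: log2 ratio, mutant over parental (x axis), against -log10 of the unadjusted p in the authors' deposited table (y axis), coloured by annotated type, with larger points for higher levels and a dashed line at 0.05. The 5 points above the line all lie left of 0, and TCP1-203 lies far right at a p of 0.350.

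Most of the members' RNA was assigned to coding transcripts. The 36 coding transcripts summed to 917 in mutant and 1089 in parental cells, 80.0% of the members' total in mutant and 81.2% in parental cells. The 36 retained intron transcripts summed to 171 in mutant and 189 in parental cells, the 14 processed transcripts to 33.8 in mutant and 35.1 in parental cells, and the 7 transcripts marked for nonsense-mediated decay to 25.2 in mutant and 28.8 in parental cells. On the log2 scale the coding sum differed by -0.25 and the retained intron sum by -0.15, but the members differed in direction. The retained intron sum was lower in CCT6A (29.1 in mutant and 44.0 in parental cells), CCT7 (23.5 and 29.7) and CCT2 (30.1 and 34.6). It was higher in TCP1 (16.0 and 14.7), CCT8 (8.81 and 7.35), CCT3 (1.87 and 1.49) and CCT5. CCT6A had the largest retained intron share, 38.1% in mutant and 41.2% in parental cells. In CCT5 the coding sum was 217 in mutant and 269 in parental cells, while the retained intron sum was 61.3 in mutant and 57.4 in parental cells. Its retained intron share was 21.96% in mutant and 17.6% in parental cells. CCT3 was the member with a sizable decay share, 14.2% in mutant and 13.8% in parental cells. These shares were not tested, and the division of reads among overlapping transcripts is not given in the sources used here.

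**Figure D4:**
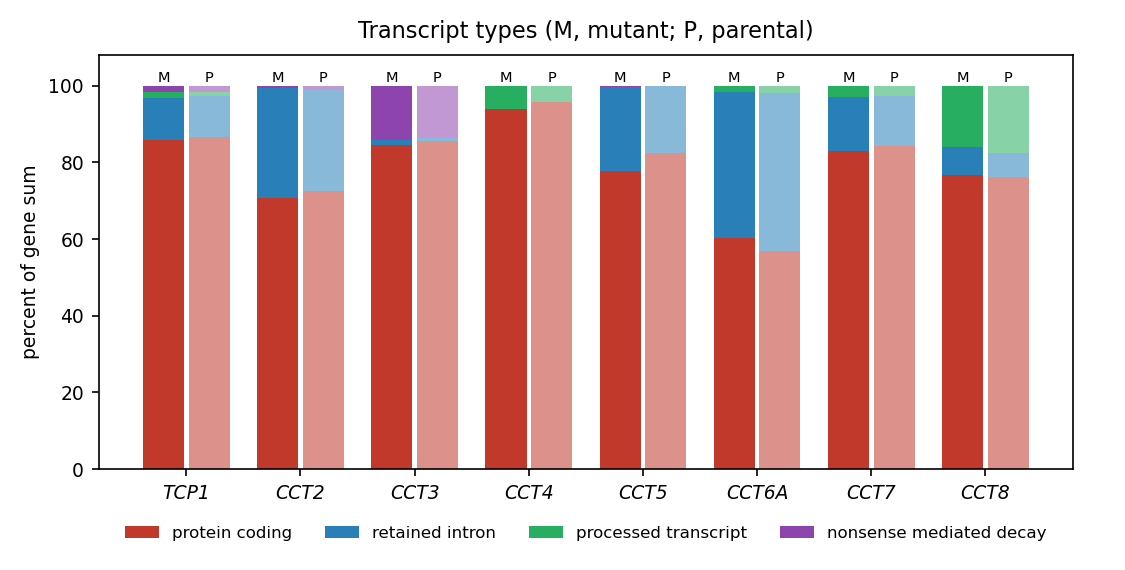
Share of each gene sum (y axis, percent) by annotated transcript type for the 8 genes, in mutant (M, full colour) and parental (P, pale) cells. Coding transcripts hold between 60.3% (CCT6A) and 93.8% (CCT4) in mutant cells, and between 56.8% and 95.7% for the same genes in parental cells.

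Some reads may be shared with other genes. The 3' end of TCP1 overlaps ACAT2, an acetyl-CoA thiolase gene on the opposite strand, over 397 exon bases. TCP1-201 shares 397 exon bases with ACAT2, TCP1-215 shares 92, TCP1-203 shares 71 and TCP1-202 shares 69. The library kit was not stated to keep strand, so such reads cannot be told apart, and ACAT2 itself stood at 17.7 in mutant and 14.5 in parental cells. CCT5 shares 1757 exon bases with the antisense gene AC012640.4 (4.10 in mutant and 7.71 in parental cells). CCT4 shares 275 with the antisense gene AC107081.2 (2.97 in mutant and 3.43 in parental cells). Pseudogene copies of the members were at low levels. CCT8P1 stood at 5.53 in mutant and 4.98 in parental cells, CCT6P1 at 2.70 in mutant and 4.46 in parental cells, and CCT6P3 at 2.31 in mutant and 3.51 in parental cells. Copies of CCT6A added up to 7.17% of its level in mutant and 7.84% in parental cells, and those of CCT8 to 4.68% in mutant and 4.28% in parental cells.

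A coding gene on the other strand starts within 1000 bases of the start of 5 members. MRPL18, a mitochondrial ribosomal protein gene 63 bases from TCP1, stood at 44.3 in mutant and 58.0 in parental cells, lower where TCP1 was not. PSPH, a serine synthesis gene 26 bases from CCT6A, stood at 23.4 in mutant and 24.2 in parental cells, a log2 ratio of -0.05 beside the -0.48 of CCT6A. PRADC1, 182 bases from the annotated gene start of CCT7 (73233420), stood at 9.16 in mutant and 8.43 in parental cells. The main transcript CCT7-201 starts further from PRADC1, at 73234238. COMMD1, a copper and NF-kB regulator gene whose start lies 80 bases from that of CCT4 and which shares 81 exon bases with it, stood at 12.7 in mutant and 15.1 in parental cells, and FAM173B, 24 bases from CCT5, at 7.11 in mutant and 9.51 in parental cells. By gene sums, the partners of CCT4, CCT5 and CCT6A were on the lower side like the member. Those of TCP1 and CCT7 were on the opposite side to the member by gene sums. For TCP1 this depends on the gene sum, since its most abundant transcript stood at a log2 ratio of -0.09. None of these pair differences was tested. SNORA20, a small nucleolar RNA inside TCP1, stood at 0.142 in mutant and 0.176 in parental cells.

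Prefoldin captures new actin and tubulin chains and hands them to CCT. Of its 6 subunit genes 5 were lower and 1 higher, with a median log2 ratio of -0.20, or -0.07 with the trends over GC content and length taken off. PFDN6 stood at 27.9 in mutant and 63.5 in parental cells, and PFDN5 at 203 in mutant and 155 in parental cells. The most abundant transcript of PFDN5, PFDN5-202, had an unadjusted p of 0.0313 in the authors' deposited table, and that of PFDN6, PFDN6-202, had 0.0951. PFDN2 stood at 93.3 in mutant and 117 in parental cells, and VBP1 at 46.9 in mutant and 55.02 in parental cells. PFDN1 stood at 55.8 in mutant and 63.4 in parental cells, and PFDN4 at 27.4 in mutant and 28.2 in parental cells. Log2 ratios within prefoldin ran from -1.16 to 0.39.

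The phosducin-like proteins PDCL and PDCL3, the related TXNDC9, and PDCD5 bind CCT and modulate folding. All 4 measured genes of this list were lower, with a median log2 ratio of -0.51, and PDCL2 stood at 0.0399 in mutant and was listed at 0 in parental cells. TXNDC9 stood at 10.4 in mutant and 19.3 in parental cells, and the authors' deposited table gives TXNDC9-201 an unadjusted p of 0.00268, the smallest among the cofactors. PDCL3 stood at 9.40 in mutant and 15.3 in parental cells, PDCL at 6.28 in mutant and 8.44 in parental cells, and PDCD5 at 87.4 in mutant and 108.3 in parental cells. The prefoldin-like genes URI1 (32.3 in mutant and 38.1 in parental cells), UXT (30.9 in mutant and 34.2 in parental cells) and PDRG1 (10.02 in mutant and 12.03 in parental cells) were lower too.

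The list of actins, the classic substrates, and actin-related genes leaned to the lower side. Of 7 measured genes of both kinds 6 were lower, with a median log2 ratio of -0.42. ACTG1, the actin gene with the highest level here, stood at 774 in mutant and 916 in parental cells, a log2 ratio of -0.24. The authors' deposited table gives ACTG1-206 an unadjusted p of 0.850. ACTG1 was named after its values were seen. ACTB, the cytoskeletal beta-actin gene, stood at 331 in mutant and 604 in parental cells, and ACTB-218 had an unadjusted p of 0.0120 in the authors' deposited table. ACTR2, of the complex that branches actin filaments, stood at 53.2 in mutant and 79.0 in parental cells, and ACTR3, of the same complex, at 49.8 in mutant and 66.1 in parental cells. ACTL6A, an actin-related chromatin protein gene, stood at 22.7 in mutant and 39.9 in parental cells.

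Tubulins were mixed, with 6 of 15 measured genes higher and 9 lower and a median log2 ratio of -0.11, or -0.06 with the GC and length trends taken off. TUBA1B, the main alpha-tubulin gene here, stood at 765 in mutant and 1024 in parental cells, and the authors' deposited table gives TUBA1B-202 an unadjusted p of 0.0147. The gamma-tubulin genes, which nucleate microtubules, lay the other way. TUBG1 stood at 71.5 in mutant and 51.7 in parental cells (TUBG1-201, unadjusted p 0.00183 in the authors' deposited table) and TUBG2 at 16.0 in mutant and 6.31 in parental cells (TUBG2-201, unadjusted p 0.00453 there). TUBB6, a beta-tubulin gene, stood at 46.8 in mutant and 31.0 in parental cells. Tubulin copies are alike in sequence, so single tubulin levels are uncertain.

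The tubulin folding cofactors take tubulin from CCT and join it into dimers. Of 7 genes 5 were lower and 2 higher, with a median log2 ratio of -0.22, or -0.12 with the GC and length trends taken off. The log2 ratios of largest size were on the higher side, 0.84 for TBCD and 0.68 for ARL2. On the abundance scale TBCA had the largest difference, on the lower side. TBCD stood at 40.4 in mutant and 22.1 in parental cells, and ARL2 at 113 in mutant and 70.2 in parental cells. TBCD and ARL2 were named after their values were seen. TBCA stood at 221 in mutant and 278 in parental cells, TBCB at 51.0 in mutant and 65.9 in parental cells, TBCE at 28.4 in mutant and 40.7 in parental cells, and TBCEL at 2.92 in mutant and 3.52 in parental cells. The authors' deposited table gives unadjusted p-values of 0.0107 for TBCE-221 (2.75 in mutant and 5.49 in parental cells), 0.0175 for TBCA-202, 0.0341 for TBCB-205 and 0.0554 for TBCEL-202.

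Of the 17 genes of WD40 and other substrates 10 were lower and 7 higher, with a median of -0.18. MLST8, a WD40 subunit of the mTOR complexes, stood at 75.4 in mutant and 43.8 in parental cells, and the authors' deposited table gives MLST8-203 an unadjusted p of 0.0427. The G protein beta subunit genes GNB5 (9.26 in mutant and 7.24 in parental cells) and GNB3 (7.73 in mutant and 5.46 in parental cells) and the transcription factor gene STAT3 (11.999 in mutant and 9.45 in parental cells) were the next by p. These 4 genes were all on the higher side.

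All 11 genes of the cytosolic HSP70 and HSP90 system, which acts upstream of and beside CCT, were lower. Their median was -0.26, equal to that of the CCT genes at this precision, or -0.18 with the GC and length trends taken off. Among all genes at 50 or more, 61.1% were lower and the median was -0.11, though not all 11 genes reached that level. DNAJA1, an HSP70 partner, stood at 49.5 in mutant and 86.8 in parental cells, HSPA4 at 40.7 in mutant and 55.5 in parental cells, HSPH1 at 13.7 in mutant and 16.4 in parental cells, and AHSA1 at 72.9 in mutant and 82.8 in parental cells. The unadjusted p in the authors' deposited table was 0.0183 for DNAJA1-201 and 0.0344 for HSPA4-201. The heat shock factors stood apart from each other, with HSF1 at 40.2 in mutant and 46.2 in parental cells and HSF2 at 26.5 in mutant and 23.4 in parental cells, where the authors' deposited table gives HSF2-201 an unadjusted p of 0.00723. The mitochondrial chaperonin pair was unequal: HSPD1, the ring protein HSP60, stood at 218 in mutant and 225 in parental cells, and HSPE1, its lid, at 49.8 in mutant and 96.4 in parental cells.

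Genes of the CCT-like proteins that assemble the BBSome, a ciliary transport complex, were low in both groups, with a median log2 ratio of -0.21, or -0.06 with the GC and length trends taken off. BBS10 stood at 5.19 in mutant and 7.495 in parental cells, MKKS at 8.07 in mutant and 9.51 in parental cells, and BBS12 at 1.58 in mutant and 0.855 in parental cells. CCT6B stood at 0.599 in mutant and 0.558 in parental cells, and CCT8L2 was listed at 0 in mutant and at 0.0143 in parental cells. Over all 77 measured genes of the 11 lists, 58 were lower and 19 higher, with a median of -0.23. An unadjusted p under 0.05 of the most abundant transcript was held by 11 genes on the lower and 5 on the higher side, against 8.63% of all genes lower and 5.17% higher, and 14.4% lower among genes at 50 or more, and the authors' deposited table called 0 of the 77 after adjustment. The lists were compared with all genes by these counts only, and nothing is called particular to CCT partners.

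**Figure D5:**
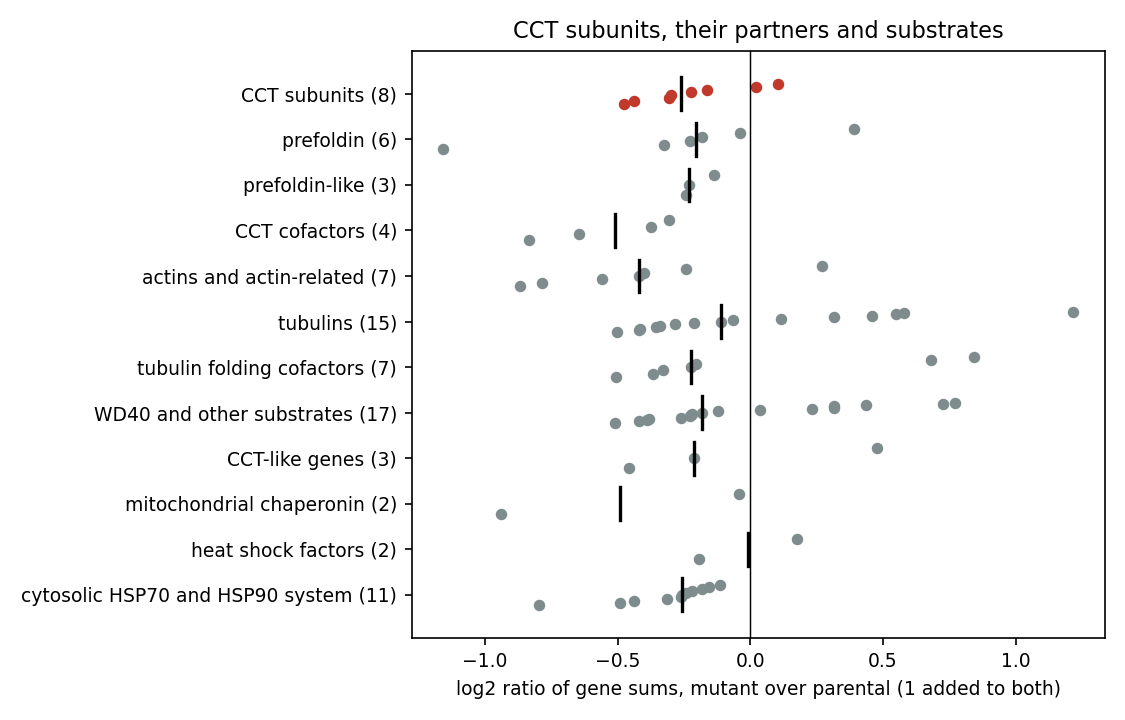
Log2 ratio of gene sums, mutant over parental (x axis), for each measured gene (points) of the CCT subunits (red, top row) and of the 11 partner and substrate lists (grey), with the median of each row as a black bar and the number of measured genes in brackets. The CCT median is -0.26, the HSP70 and HSP90 row lies wholly left of 0, and tubulins run from -0.50 to 1.22.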

How the data were processed

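RNA-seq of 3 CASP8AP2 mutant and 3 parental HEK293 libraries was deposited by the authors as 1 table of 203376 transcripts with group means only. Per the labels' protocols, RNeasy total RNA went into NEBNext Ultra RNA libraries primed at random. Per the submitters' processing notes, bcl2fastq, STAR and Partek were used with build hg38, with versions and annotation not given in the sources used here. LSMean, a score of the authors per the file headers, is a group mean; it is at least 1 throughout, and with 1 taken off it sums to 496162 in both groups. The deposited signal named total counts is not a whole number and was used only to find untested transcripts. The authors' deposited p-value, its adjusted form, the ratio and the signed fold are scores for 140552 transcripts.

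From these, gene sums, log2 ratios after adding 1, and counts at a level of at least 1 were computed (Python 3.11.15, pandas 2.3.3). Transcript types, lengths and GC content came from GENCODE release 29, which held 99.1% of transcript names. GC and length trends were running medians over 40 bins, averaged over 5. Depth was estimated from the repeated size of abundance times length of transcripts with a p of 0.374, which marks reads in 1 library. The functions were tested on simulated data. Since single libraries were not in the table, the planned fit to libraries was replaced by the authors' deposited test, as the design allowed for. Members and lists were chosen with earlier results of these data known. All 8 members are named, their 10 transcripts of smallest p, and of each list the 4 genes of smallest p (all genes in lists of up to 6); member transcripts at 1 or more could also be given; neighbours and copies were chosen by position or name, and which of them are printed was decided after their values were seen. No gene is named for likeness of pattern, since 2 group means define none. Alternatives were other added constants, filters, thresholds, scalings, transcript choices and removal of GC and length trends.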

Additional observations from a re-analysis of the deposited data

How the results depend on the processing

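The median log2 ratio of the 8 genes was -0.26 and stayed between -0.31 and -0.24 with an added constant of 0.1 or none, with the most abundant or only coding transcripts, with scaling to the total without mitochondrial genome genes or to the median of all genes, and, in 2 alternatives added after the data were seen, with TCP1 lacking TCP1-203 or left out. Several of these settings could hardly move the median. Gene sums of the members were 76.4 or more, so the added constant weighs little. The scalings shift all genes alike, by 0.024 (without mitochondrial genome genes) and 0.0055 (median of all genes). Without TCP1-203, TCP1 stayed above the middle of the 8 genes, so the median was the same. With GC and length trends taken off the median moved to -0.16. In each of these settings 6 genes were lower, except for the most abundant transcript, where 7 were. TCP1 then stood at -0.09, CCT4 at -0.31, and CCT6A at -0.33, behind CCT7 (-0.46) and CCT2 (-0.35). No member transcript was called at an adjusted p under 0.05 or 0.01, by the p of the factor Type, or among transcripts at 1 or more with a new adjustment; 5 had an unadjusted p under 0.05. The pooled median of the partner lists, -0.23, stayed within 0.1 under the other filters, the other constant, the most abundant transcript and with GC and length trends taken off (-0.21). For single lists 46 of 55 values kept their sign and lay within 0.1 of the main one, and 9 did not. With GC and length trends taken off, an alternative added after the data were seen, 5 lists moved by more than that: prefoldin to -0.07, the cofactors to -0.39, the tubulin folding cofactors to -0.12, the CCT-like genes to -0.06 and the mitochondrial chaperonin to -0.38. The other 4 were the cofactors (-0.37 without a filter), the CCT-like genes (-0.33 at a level of at least 5 and -0.02 without a filter) and the heat shock factors (0.06 for the most abundant transcript). No paired analysis was possible because the table held group means and no single libraries; leaving out libraries and fits with limma, DESeq2 or edgeR were not run for the same reason. Depth does not limit the members, whose gene sums rest on an estimated 2199 reads or more even at the shallowest depth, but minor transcripts under 1 rest on few.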
